A study of Mus musculus with 2 samples.

Results

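The 39 mouse Hox genes were followed in polyadenylated RNA of adipose tissue from a C57BL/6J mouse, a male of 10 weeks. The members were every gene named Hoxa, Hoxb, Hoxc or Hoxd followed by a number only, without antisense genes, and all 39 were found among 43346 mouse gene identifiers. Of them 11 lie in the Hoxa cluster, 10 in Hoxb, 9 in Hoxc and 9 in Hoxd. There was 1 biosample, sequenced as technical replicate 2 (library 2, performed in 2015) and technical replicate 1 (library 1, the library of the 2014 publication that the labels name). No treatment or genotype was compared, and the labels do not name the fat depot. With 1 library on each side, every test compares these libraries and covers counting error only, each SD is technical (n = 2), and the library and its date of preparation cannot be told apart.

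Hox genes encode homeodomain transcription factors. They stand in rows on the chromosome, and in the embryo the genes at the low-numbered end are switched on first and nearest the head, while those at the high-numbered end act in the lumbar, sacral and tail regions, the limbs and the urogenital tract. Genes with the same number in different clusters, the paralogs, descend from a common ancestral gene and often share functions. Adult fat and its stromal cells keep a part of this pattern, and Hox genes differ between fat depots in mice and humans.

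Depth was 19256807 expected counts in library 2 and 19954869 in library 1. Genes of the mitochondrial chromosome held 8.66% of TPM (transcript abundance per length, scaled to the same total in each library) in library 2 and 33.6% in library 1. In both libraries all 10 adipocyte markers reached 1 TPM, with summed levels of 12372 TPM in library 2, against 7850 TPM in library 1, and none was at 0. All 10 epididymis markers also reached it, with summed levels of 51033 TPM in library 2, against 44709 TPM in library 1, as did all 7 testis germ cell markers (1369 and 240.0 TPM). All 6 stromal progenitor markers (1291 TPM in library 2, 1358 TPM in library 1), all 5 endothelium markers (242 and 81.0 TPM) and all 6 mesothelium markers (252 and 67.1 TPM) were likewise present, whereas 1 of 5 brown adipocyte markers was (20.2 and 3.8 TPM). The part of any of these cells in the Hox levels was not tested, and in bulk tissue fewer cells of a type and less RNA per cell cannot be told apart.

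The homeobox is the stretch that codes for the DNA-binding homeodomain. It is shown for the highest member of Hoxb, Hoxc and Hoxd by mean TPM, because the sequences show how alike the DNA-binding parts are. In library 2 alone, Hoxb6 was the highest gene of Hoxb (110.5 TPM) and Hoxd4 the highest of Hoxd (93.4 TPM). Capitals mark the codons of the third, DNA-contacting helix.
Hoxb7 homeobox, mm10 chr11:96289385-96289564, plus strand: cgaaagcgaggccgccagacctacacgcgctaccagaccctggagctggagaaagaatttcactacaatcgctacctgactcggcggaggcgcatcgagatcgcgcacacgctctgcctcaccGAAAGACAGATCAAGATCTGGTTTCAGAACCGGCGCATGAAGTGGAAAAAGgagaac
Hoxc8 homeobox, mm10 chr15:102992571-102992750, plus strand: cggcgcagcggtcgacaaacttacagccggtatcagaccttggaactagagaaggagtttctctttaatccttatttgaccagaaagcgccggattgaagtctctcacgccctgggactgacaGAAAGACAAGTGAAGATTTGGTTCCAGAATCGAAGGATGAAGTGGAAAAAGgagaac
Hoxd8 homeobox, mm10 chr2:74706525-74706704, plus strand: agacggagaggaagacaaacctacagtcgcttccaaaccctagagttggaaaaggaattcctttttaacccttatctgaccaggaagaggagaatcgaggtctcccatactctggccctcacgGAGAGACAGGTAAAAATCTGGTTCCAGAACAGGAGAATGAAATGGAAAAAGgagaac
Each of the 39 homeoboxes was 180 bases long and lay in 1 exon. The Hoxc8 and Hoxd8 homeoboxes above shared 73.3% of their bases. Homeoboxes of the same paralog number (42 pairs) shared a median of 80.6% of their bases, with a range of 67.2% to 93.9%, against 61.7% between members of the same cluster (172 pairs) and 61.1% over all 741 pairs. By median, homeoboxes were thus more alike within a paralog number than within a cluster.

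Most Hox genes were present, with an edge at the high-numbered end of each cluster. At 1 TPM or more there were 27 of 39 members in library 2 and 24 in library 1. The same 24 members passed in both libraries (61.5%), against 31% of all 42462 genes with a symbol and 57.1% of all 21474 protein-coding genes. There were 3 members that passed in library 2 only, among them Hoxb1 and Hoxa6, and Hoxc11, Hoxc12, Hoxc13 and Hoxd12 had no count in either library. The summed Hox level was 779 TPM in library 2, against 439 TPM in library 1. These sums depend on the rest of each library, where mitochondrial genes held 8.66% of TPM in library 2 and 33.6% in library 1. Of all expected counts, Hox genes held 0.0921% in library 2 and 0.0727% in library 1. The order of the 39 genes was close between the libraries (Spearman rho 0.953 across genes, which share the libraries and are not independent). Members of groups 1 to 9 held 99.5% of the Hox TPM in library 2 and 99.5% in library 1, and 23 of these 27 genes were at 1 TPM or more in both. Of the 12 members of groups 10 to 13, 1 passed, and the 12 together held 0.502% in library 2 and 0.512% in library 1.

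**Figure D1:**
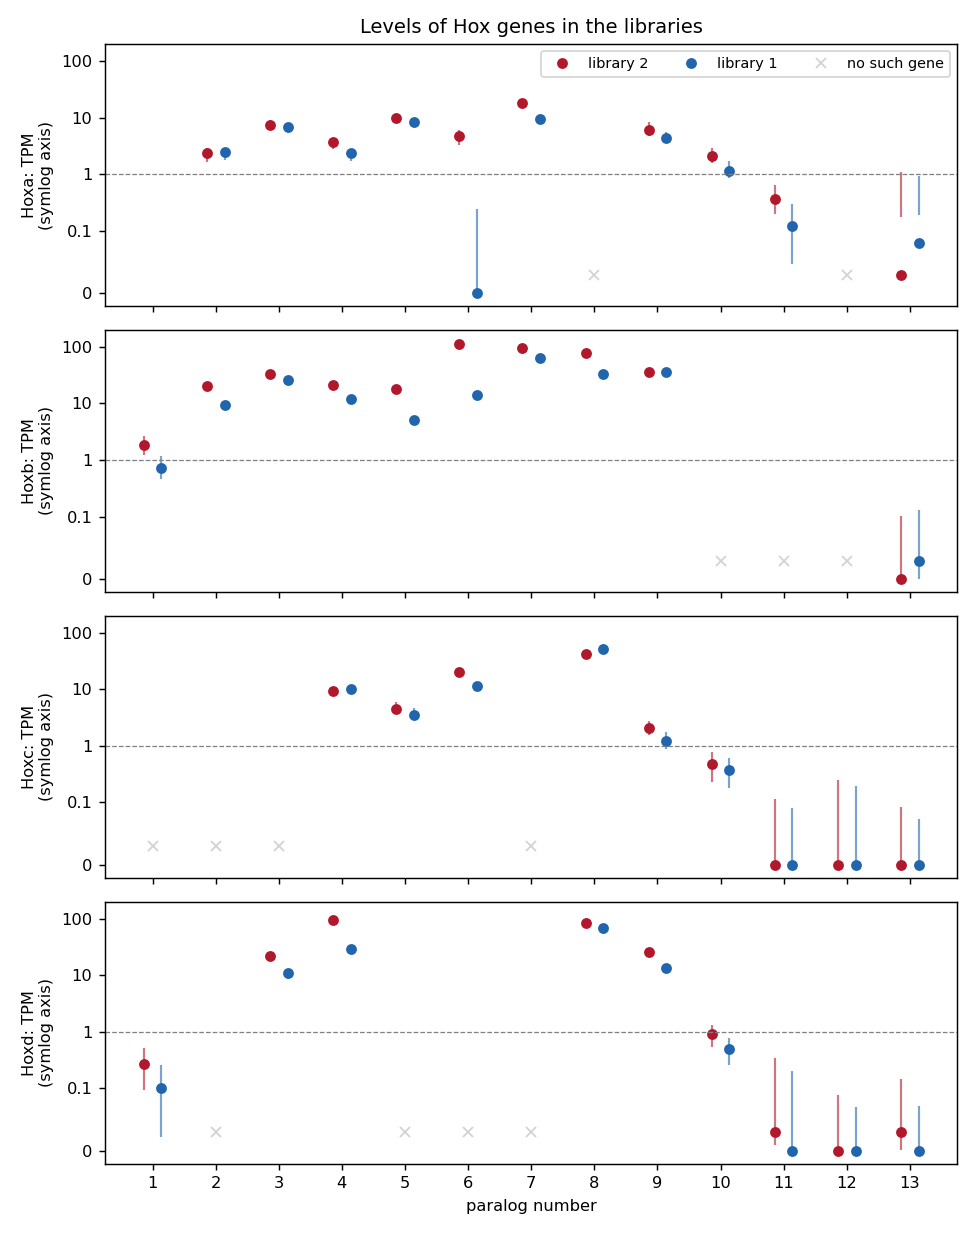
TPM of the Hox genes, 1 of them not shown (symlog axis, linear below 0.1) against its paralog number, 1 panel per cluster, with library 2 in red left of library 1 in blue; bars are the interval bounds deposited with the TPM, whose level is not stated, and the dashed line is 1 TPM. Levels fall below 1 TPM past group 9 in Hoxb, Hoxc and Hoxd and past group 10 in Hoxa. The deposited interval of Hoxa13 lies above its TPM, and intervals of genes at 0 TPM begin above 0. In library 2 the intervals of Hoxb6, Hoxb7, Hoxb9, Hoxc8 and Hoxd4 lie below their TPM, as does that of Hoxc8 in library 1.

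Among the anterior groups 1 to 3, which pattern the hindbrain and neck, group 1 was low and groups 2 and 3 were moderate. Hoxb1, needed for the identity of the facial nerve's segment of the hindbrain, was the highest group 1 gene at 1.86 TPM in library 2, against 0.71 TPM in library 1. Hoxd1 had 0.27 TPM in library 2, against 0.10 TPM in library 1. The step to the next gene was large in Hoxd: the level of Hoxd1 was 0.0123 times that of Hoxd3 in library 2 (95% exact interval 0.00450 to 0.0270) and 0.00970 times in library 1 (0.00199 to 0.0286). Hoxd3 counts were not whole in either library, and these intervals do not cover the split of its reads. Of Hoxd3 TPM, 58.1% in library 2 and 82.7% in library 1 lay on a transcript annotated as a retained intron. Hoxb2 reached 20.7 TPM in library 2, against 9.21 TPM in library 1, and Hoxa2, which patterns the second pharyngeal arch, 2.34 and 2.43 TPM. In group 3, Hoxb3 was highest in both libraries with 33.8 TPM in library 2, against 26.3 TPM in library 1. Hoxd3, which acts in the first neck vertebra, followed with 21.7 TPM in library 2, against 10.8 TPM in library 1. The coding transcripts of Hoxd3 had 9.09 TPM in library 2 and 1.87 TPM in library 1. Hoxa3, needed for the thymus and parathyroid, had 7.43 and 6.85 TPM.

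The central groups 4 to 8, which act in the neck and thorax, held most of the Hox RNA, 79.1% of Hox TPM in library 2 and 73.9% in library 1. Group 8 alone held 26.3% in library 2 and 35.3% in library 1. Hoxb7 was the highest member by mean, 80.1 ± 24.0 TPM (SD, n = 2), with 97.1 TPM in library 2, against 63.1 TPM in library 1. Hoxd8 was close to it at 76.4 ± 10.2 TPM (SD, n = 2), with 83.6 TPM in library 2, against 69.2 TPM in library 1, so their order lies within the spread of the libraries. Hoxb8, known for its roles in myeloid progenitors and microglia, had 79.2 TPM in library 2, against 33.6 TPM in library 1. Hoxc8, which in mice is a marker of white fat and inhibits brown fat formation, had 42.2 TPM in library 2, against 52.3 TPM in library 1. All 3 genes of group 8 were thus among the 6 highest Hox genes of both libraries, although they stand in different clusters on chromosomes 11, 2 and 15.

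Hoxb6 and Hoxd4 stood higher in the order of Hox genes in library 2. Hoxb6 was the highest Hox gene of library 2 at 110.5 TPM and the eighth of library 1 at 14.2 TPM. Hoxd4 had 93.4 TPM in library 2, against 29.6 TPM in library 1. Its count was not whole in either library, nor was that of Hoxd3; the 2 genes overlap each other and the annotated gene Gm28230 on the same strand, so the split of reads between them is uncertain. The counts of Hoxa2 and Hoxa3, which the annotated gene Gm28308 overlaps, were not whole in library 2. In the annotation used for coordinates the span of Hoxa3 also covers Hoxa4, Hoxa5 and Hoxa6 and that of Hoxc5 covers Hoxc6, Hoxc8 and Hoxc9. The counts of the covered genes and of Hoxc5 were whole in both libraries. Whether reads were divided rightly among these genes was not tested. Hoxb4, known from blood stem cells, had 21.6 TPM in library 2, against 12.1 TPM in library 1, and Hoxb5 18.3 and 5.07 TPM. In Hoxc, Hoxc6 had 20.1 TPM in library 2, against 11.6 TPM in library 1 and Hoxc4 9.35 and 10.1 TPM. In Hoxa, Hoxa7 had 18.1 TPM in library 2, against 9.44 TPM in library 1. Hoxa5, needed for the lung and airways, had 9.84 TPM in library 2, against 8.27 TPM in library 1. Hoxa4 and Hoxc5 lay between 2.33 and 4.56 TPM over both libraries.

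**Figure D2:**
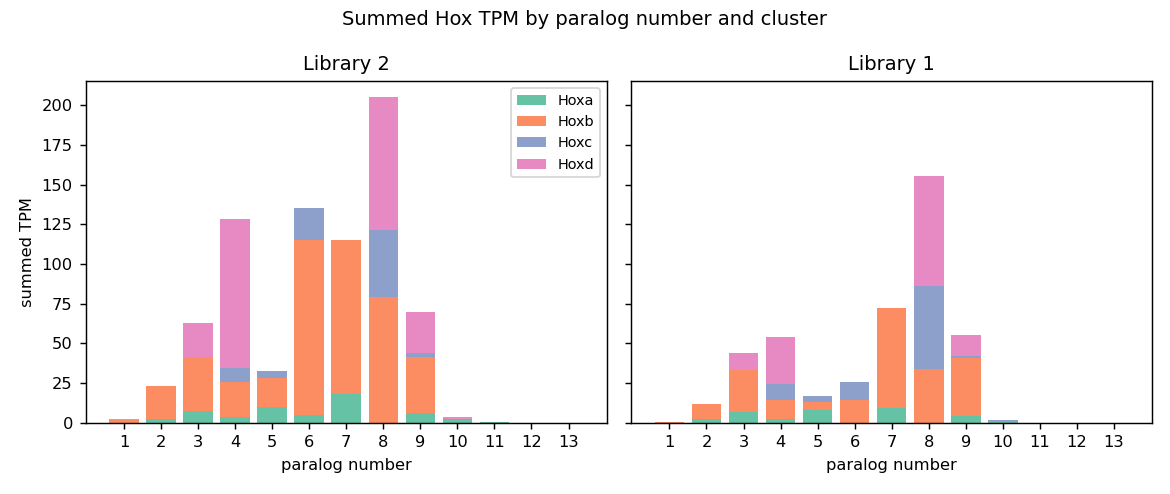
Summed TPM of the Hox genes of each paralog number, without 1 gene that is not shown, stacked by cluster, in library 2 (left) and library 1 (right). Group 8 is the tallest bar in both libraries, at 205 TPM in library 2, against 155 TPM in library 1, and groups 10 to 13 are close to 0.

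Group 9, which acts at the border of thorax and lumbar region and in the mammary gland, was the last group with every member present. Hoxb9 had the steadiest TPM of the high members, 35.6 TPM in library 2, against 36.1 TPM in library 1. It was not the steadiest in scaled counts. There its log2 ratio of library 2 over library 1 was -0.64, against -0.12 for Hoxb7. Hoxd9 had 26.1 TPM in library 2, against 13.5 TPM in library 1, and Hoxa9 6.09 and 4.43 TPM. Hoxc9, used as a marker of white against brown fat in mice, was at 2.08 TPM in library 2, against 1.2 TPM in library 1. The 4 paralogs of group 9 therefore spanned more than 1 order of magnitude in each library.

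Past group 9 the levels dropped. Hoxa10, which patterns the uterus and the vas deferens, was the only gene of groups 10 to 13 to reach 1 TPM in both libraries, with 2.06 TPM in library 2, against 1.15 TPM in library 1. Of Hoxa10 TPM, 91.7% in library 2 and 100% in library 1 lay on a transcript annotated as processed, not as coding. The higher of its coding transcripts had 0.17 TPM in library 2 and 0 TPM in library 1. Hoxc10, described as a gene of subcutaneous fat in mice and humans, had 11 counts in each library, or 0.48 TPM in library 2, against 0.37 TPM in library 1. Hoxd10, a gene of lumbar motor neurons, had 0.92 TPM in library 2, against 0.50 TPM in library 1. Hoxa11, active in the forearm, uterus and vas deferens, was the highest group 11 gene at 0.36 TPM (10 counts) in library 2 and 0.12 TPM (4 counts) in library 1. In group 13, which builds digits, tail end and external genitalia, Hoxa13 had 1 count in library 2 and 3 in library 1. Hoxb13, a gene of the prostate and the end of the colon, had no count in library 2 and 1 in library 1. Hoxd13 had 1 count and Hoxd11 1.16 counts in library 2, and neither had any in library 1. The floor of 3 counts for Hoxd13 lay at 0.0975 TPM in library 2, against 0.0764 TPM in library 1, so lower levels were not detectable at this depth. For the 4 genes without a count, that floor ranged from 0.0954 TPM (Hoxd12) to 0.265 TPM (Hoxc12) in library 2 and from 0.0747 TPM (Hoxd12) to 0.208 TPM (Hoxc12) in library 1.

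The place and the steepness of this edge varied among the clusters. In Hoxd the level of Hoxd9 was 28.5 times that of Hoxd10 in library 2 (95% exact interval 18.3 to 46.97) and 26.8 times in library 1 (15.8 to 49.4), over 5.1 kb between their homeoboxes. In Hoxc the step came 1 gene earlier: Hoxc8 was 20.3 times the level of Hoxc9 in library 2 (15.6 to 26.7) and 43.5 times in library 1 (32.4 to 59.9), over 8.6 kb. A transcript annotated as a retained intron held 12.4% of Hoxc8 TPM in library 2 and 57.9% in library 1. The coding transcript of Hoxc8 had 36.95 TPM in library 2 and 22.0 TPM in library 1. Hoxc9 was then 4.37 times Hoxc10 in library 2 (2.28 to 9.21) and 3.22 times in library 1 (1.64 to 6.91). In Hoxa the fall was spread over several genes: Hoxa9 was 2.96 times Hoxa10 in library 2 (2.10 to 4.24) and 3.85 times in library 1 (2.62 to 5.84). Most of the Hoxa10 level lay on a transcript not annotated as coding. Hoxa10 was 5.79 times Hoxa11 in library 2 (2.87 to 12.9) and 9.41 times in library 1 (3.32 to 36.8). In Hoxb, which holds no gene between groups 9 and 13, Hoxb9 was at least 321-fold higher than Hoxb13 in library 2, taking the floor of 3 counts for Hoxb13, and 1247 times in library 1 on 1 count (223.5 to 49310), over 78.6 kb. These intervals treat the expected counts as reads and hold counting error only.

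**Figure D3:**
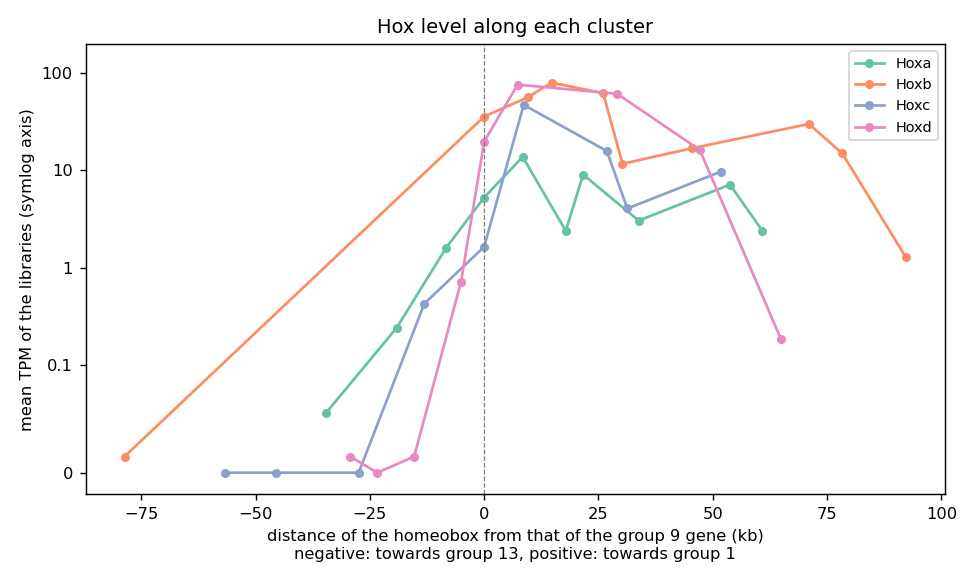
Mean TPM of the libraries (symlog axis, linear below 0.1) against the distance of each homeobox from that of the group 9 gene of its cluster, in kb, with lines joining neighbours and 1 gene not shown. By this mean each cluster peaks within 15 kb on the low-numbered side of group 9. Each is under 1 TPM from its group 10 or 11 gene onward (group 13 in Hoxb). Hoxd falls from 19.8 TPM to 0.71 TPM over 5.1 kb.

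The windows upstream of the genes at the Hoxd edge are shown because neighbouring genes there differ so widely in level. They cover 200 bases that end shortly before the RefSeq gene start, and capitals mark a match to the motifs searched for on both strands.
Hoxd8 upstream window, GRCm38.p6 chr2:74704365-74704564, plus strand: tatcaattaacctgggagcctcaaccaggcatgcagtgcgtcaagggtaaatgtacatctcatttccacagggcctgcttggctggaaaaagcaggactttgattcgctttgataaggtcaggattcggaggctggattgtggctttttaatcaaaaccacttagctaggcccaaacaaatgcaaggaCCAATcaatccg
Hoxd9 upstream window, GRCm38.p6 chr2:74697513-74697712, plus strand: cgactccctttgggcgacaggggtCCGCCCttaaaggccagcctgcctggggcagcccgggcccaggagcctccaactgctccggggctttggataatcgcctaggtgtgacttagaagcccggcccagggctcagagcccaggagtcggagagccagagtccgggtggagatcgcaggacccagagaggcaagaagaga
Hoxd10 upstream window, GRCm38.p6 chr2:74691641-74691840, plus strand: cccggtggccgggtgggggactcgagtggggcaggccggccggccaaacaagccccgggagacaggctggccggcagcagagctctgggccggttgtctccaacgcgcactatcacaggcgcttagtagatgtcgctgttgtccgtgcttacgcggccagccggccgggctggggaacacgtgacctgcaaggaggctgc
The motifs were the TATAAA box, the GC box GGGCGG, the joint Hox and Pbx motif TGATTNAT and the CCAAT box. Hoxd8 (83.6 TPM in library 2, 69.2 TPM in library 1) held 1 CCAAT and 4 CG dinucleotides, Hoxd9 (26.1 and 13.5 TPM) 1 GGGCGG and 10 CG dinucleotides, and Hoxd10 (0.92 and 0.50 TPM) none of the motifs and 18 CG dinucleotides. Beyond Hoxd10, Hoxd11 (0.03 TPM in library 2, 0 TPM in library 1) had windows with 2 and 18 CG dinucleotides. RefSeq gave no window for 17 members, among them Hoxb6, Hoxb7, Hoxb9 and Hoxc8. It gave 24 windows of the other 22 Hox genes. Their median was 11 CG dinucleotides, against 4 in all 32851 windows, and their median GC content 58%, against 51.5%. CCAAT was in 11 of the 24 Hox windows, or 45.8% (28.4% of all windows), and GGGCGG in 9, or 37.5% (24.6%). TATAAA was in 3, or 12.5% (9.14%), and TGATTNAT in 2, or 8.33% (2.34%). A match describes letters and is not a bound site, and no match says only that these letters are not in the window.

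The clusters differed in how much of the Hox RNA they held. Hoxb held 53.7% of Hox TPM in library 2 and 45.7% in library 1, with 8 of 10 genes at 1 TPM or more in both. Hoxd held 29.0% in library 2 and 28.1% in library 1 with 4 of 9 genes, Hoxc 10.1% and 18.0% with 5 of 9, and Hoxa 7.17% and 8.20% with 7 of 11. Hoxa thus had a larger part of its genes present than Hoxd and a smaller share of the RNA, in both libraries. Hoxd kept its share within 1 percentage point, whereas Hoxc held a smaller share in library 2 than in library 1. Within Hoxc, the Hoxc8 transcript annotated as a retained intron had 5.21 TPM in library 2 and 30.3 TPM in library 1. At 1 TPM in both libraries the genes present ran from group 2 to 10 in Hoxa, 2 to 9 in Hoxb, 4 to 9 in Hoxc and 3 to 9 in Hoxd, with no gap except Hoxa6.

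Between the libraries few Hox genes were called. Of 39 members 30 had at least 10 counts over both libraries and entered a two-sided exact binomial comparison, adjusted after Benjamini and Hochberg over all 18275 genes tested. Calls asked for 2-fold or more and an adjusted p below 0.05, and 2 Hox genes were higher in library 2 (30.2% of all tested genes were) and 1 was lower (18.6% of all tested genes were). Hoxb6 was higher, with 1942 counts in library 2 and 431 in library 1 (log2 ratio 1.78, 95% exact interval 1.63 to 1.94, adjusted p 3.11e-148 by the exact binomial test). Hoxa6, a gene of the thoracic groups, had 44 counts (4.77 TPM) in library 2 and none in library 1, and so was at least 11.2-fold higher against the floor of 3 counts in library 1 (adjusted p 3.54e-11 by the exact binomial test). Its neighbours Hoxa5 and Hoxa7 had 223 and 402 counts in library 2 and 239 and 295 in library 1. The lower gene was Hoxc8, with 975 counts in library 2 and 1689 in library 1 (log2 ratio -1.18, 95% exact interval -1.30 to -1.07, adjusted p 3.05e-95 by the exact binomial test). Scaling by total counts, which moves every log2 ratio by 0.44, brought Hoxc8 to -0.74 and ended its call.

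Most Hox genes lay below the trend of the libraries with GC content. Log2 ratios of library 2 over library 1 climbed with the GC content of a gene's transcripts: the median over all tested genes was -0.63 under 52% GC and 2.65 at 55% GC or more. Among Hox genes the medians were -0.39 (11 genes) and 0.14 (10 genes). Under 52% GC, 0 of 11 Hox genes were called higher and 1 lower, while 4.82% of all 11258 such genes were called higher and 29.4% lower. At 55% GC or more, 2 of 10 Hox genes were called higher and 0 lower, while 86.4% of all 3959 such genes were called higher and 0.253% lower. Hoxd9, at 61.0% GC, had a log2 ratio of 0.22 in a GC bin whose median was 4.21, and Hoxb3, at 56.6% GC, one of -0.38 in a bin with 2.45. Hoxd8 (56.3% GC) had -0.52 in a bin with 2.20. All tested Hox genes but 2, Hoxa6 and Hoxd10, lay below the median of their GC bin. When the median of the GC bin was subtracted, 17 Hox genes were lower in library 2 (8.41% of all genes), 1 was higher (9.62% of all genes) and the median Hox ratio was -1.17, against 0.00 without that step. Hoxa6 kept its call with the GC trend removed (adjusted p 0.0247 by the exact binomial test), but its fitted ratio depends on the 0.5 added to a count of 0, and against the floor of 3 counts it was at least 1.74-fold higher after that step, which is under the 2-fold limit. The log2 ratio of Hoxb6 turned to -0.67.

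**Figure D4:**
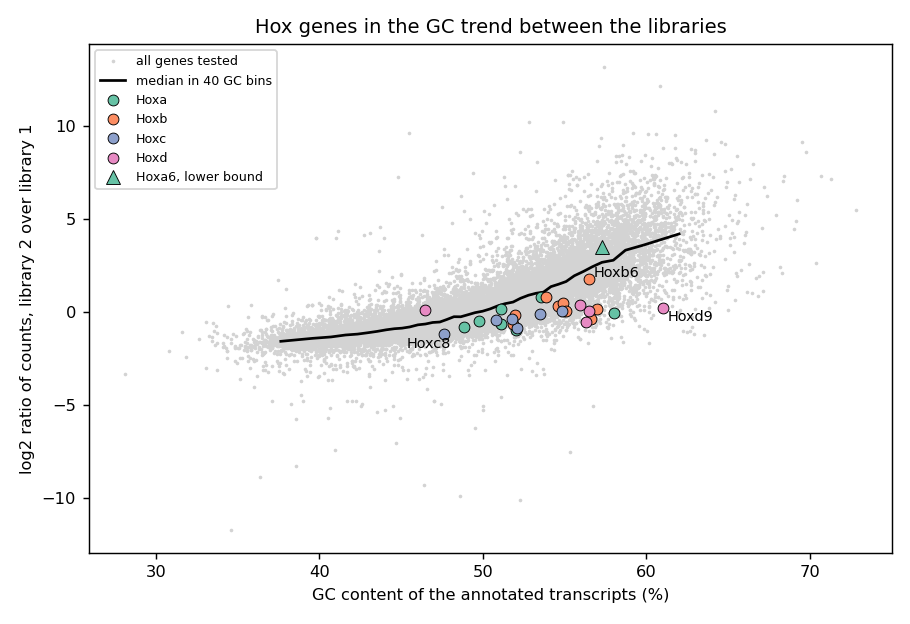
Log2 ratio of counts (library 2 over library 1) against GC content of the annotated transcripts for all tested genes (grey; genes with no count in 1 library depend on the 0.5 added), the median in 40 GC bins (black line) and the tested Hox genes, 1 of them not shown, by cluster, with Hoxa6 as a triangle at its lower bound of 11.2-fold. All tested Hox genes but Hoxa6 and Hoxd10 lie below the line, and Hoxd9, at 61.0% GC, is at 0.22.

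The libraries differed in which transcripts of a gene took the reads. Of 13 Hox genes with a mean of 10 TPM or more and several transcripts, 8 had the same leading transcript in both libraries. Hoxc8 did not: its spliced coding transcript took 87.6% of its TPM in library 2 and 42.1% in library 1, and the transcript annotated as a retained intron took 12.4% and 57.9%. In expected counts the coding transcript of Hoxc8 had 832.8 in library 2 and 633.4 in library 1, and the retained intron 142.2 and 1056. The difference behind the lower call of Hoxc8 in library 2 thus lay in the counts given to the retained intron, while the unscaled counts of the coding transcript were higher in library 2. Hoxb5 had 17.8% of its TPM on a retained intron in library 2 and 63.1% in library 1. Unlike in Hoxc8, its counts differed mainly on the coding transcript, with 344.9 in library 2 and 54.8 in library 1. The retained intron of Hoxb5 had 113 and 142 counts. Hoxd3 had 58.1% on a retained intron in library 2 and 82.7% in library 1. Hoxb2 went the other way, with 5.99% in library 2 and 1.73% in library 1. Over all 6 Hox transcripts of this class (of 87 transcripts), counts came to 4.31% of the Hox counts in library 2 and 11.1% in library 1. Without the Hoxc8 transcript they came to 3.51% and 3.8%.

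Other genes shifted between coding transcripts. Hoxb6 had 1220 counts on a coding transcript of 1321 bases in library 2 and none on it in library 1, while the other, of 1964 bases, had 722.4 counts in library 2 and 431 in library 1. Most of the difference in Hoxb6 counts lay on the first of these. Hoxb9, whose gene TPM was alike, had 62.8% of it in library 2 and 2.45% in library 1 on a transcript of 2574 bases. The rest, 37.2% and 97.6%, was on one of 2269 bases. Hoxd4 had 640.3 counts in library 2 and none in library 1 on a transcript of 1494 bases. Hoxa7 carried 70.8% in library 2 and 79.2% in library 1 on a transcript annotated for nonsense-mediated decay. Hoxd8 was steady, with 69.4% in library 2 and 71.8% in library 1 on its leading transcript. The shares are the authors' estimates from short reads, with no interval printed for them.

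**Figure D5:**
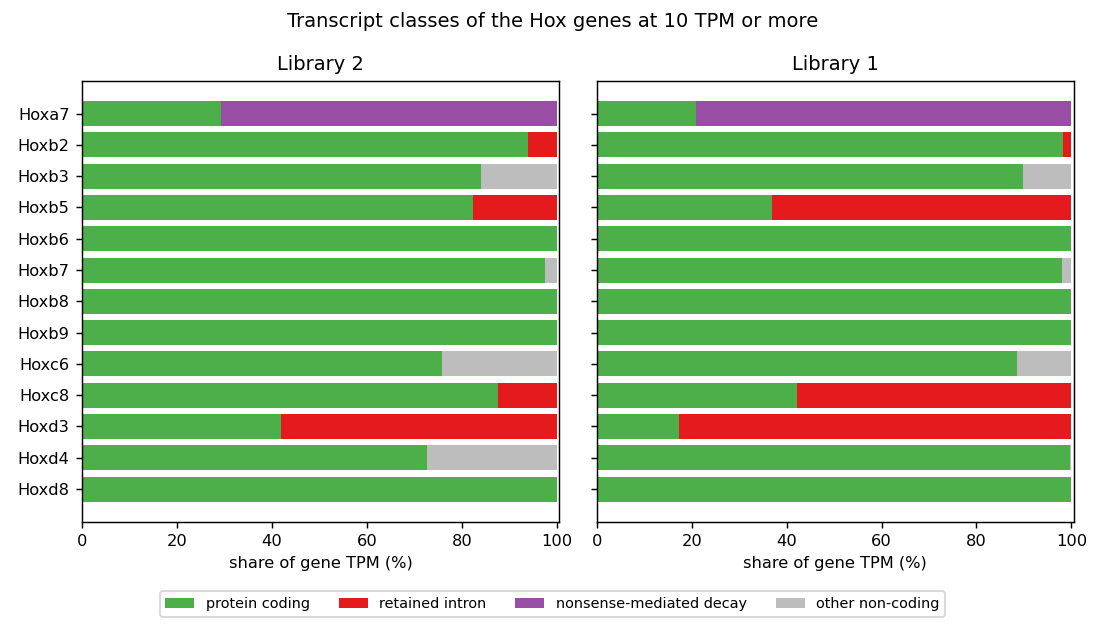
Share of gene TPM (%) by annotated transcript class for the 13 Hox genes at 10 TPM or more with several transcripts, in library 2 (left) and library 1 (right). The retained-intron share of Hoxc8 is 12.4% in library 2 and 57.9% in library 1, and that of Hoxb5 17.8% and 63.1%.

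Other genes annotated inside the clusters were mostly low. Together with the flanking Evx1 and Evx2 there were 48, of which 47 had a value. Of these, 25 had no count in either library and 10 were at 1 TPM or more in both. All 6 microRNA genes with a value (the Mir10 and Mir196 families and Mir615) were at 0; the RNA was polyadenylated, and the labels give a size range of 350 to 450 with no unit. Hotair, the antisense RNA at the posterior end of Hoxc, had no count in either library, like Hoxc11, Hoxc12 and Hoxc13 beside it. Evx2, beyond Hoxd13, had none either. Of the neighbours with at least 10 counts over both libraries, Hoxd3os1, antisense to Hoxd3, Hoxd4 and Hoxd8, was the highest, with 29.9 TPM in library 2, against 15.0 TPM in library 1. Gm53, a non-coding gene between Hoxb9 and Hoxb13, had 17.1 and 5.74 TPM. Gm27867, a short gene, was listed at 81.6 TPM in library 2 on 2.92 counts and had none in library 1.

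Of 14 neighbours tested in the same way, 5 were called higher in library 2 (30.2% of all tested genes were) and 1 lower (18.6%). With the GC trend removed, 1 was higher (9.62% of all genes) and 5 were lower (8.41%). Hoxb5os, antisense to Hoxb5 and Hoxb6, had 77 counts in library 2 and 1 in library 1. Hotairm1, transcribed from the anterior end of Hoxa, had 57.1 counts in library 2 and 16 in library 1 (log2 ratio 1.41), and turned to a lower call with the GC trend removed (-1.92). Gm28308, which overlaps Hoxa6 and other Hoxa genes on the same strand, had 10.8 counts in library 2 and none in library 1. Gm28230, which overlaps Hoxd3 and Hoxd4 on the same strand, had 897.9 counts in library 2 and 240.1 in library 1 (log2 ratio 1.51), and also turned to a lower call (-1.17). Haglr had 32 counts in library 2 and 9 in library 1, and the lower gene Hoxaas3 had 29 and 52. Whether strand was used in counting is not given in the sources used here, so reads of a Hox gene and of its antisense partner cannot be told apart; Hoxb5os stands beside Hoxb6, the called gene, and overlaps it.

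The TALE homeodomain proteins (Pbx, Meis and Pknox) bind DNA together with Hox proteins, and 8 of 9 of their genes reached 1 TPM in both libraries. Pbx2 had 36.0 TPM in library 2, against 6.60 TPM in library 1, and Pknox1 16.1 and 4.87 TPM. Of the 9 genes, 3 were called higher (30.2% of all tested genes were) and 1 lower (18.6%). With the GC trend removed none was called, while 9.62% of all genes were called higher and 8.41% lower. The Cdx genes, which activate Hox genes in the embryo's trunk and gut, were not at 1 TPM (0 of 3): Cdx2 had 5 counts in library 2 and 4 in library 1, and Cdx1 and Cdx4 none. The ParaHox genes Pdx1, Gsx1 and Gsx2, relatives outside the clusters, had no count in either library. Of 6 retinoid receptor genes, whose ligand retinoic acid induces anterior Hox genes, 4 were at 1 TPM or more in both. Rxra had 45.2 TPM in library 2, against 5.01 TPM in library 1, Rarg 25.4 and 10.9 TPM, and Rxrb 29.6 and 1.35 TPM, and 5 of the 6 were called higher (30.2% of all tested genes, and 86.4% of those at 55% GC or more, were). After subtraction of the GC bin median, none of these receptor genes stayed higher (9.62% of all genes were) and 1 was lower (8.41%).

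Polycomb proteins keep Hox genes silent and Trithorax proteins keep them active. Of 22 Polycomb genes 20 reached 1 TPM in both libraries, with Rbbp7 at 293 TPM in library 2, against 309 TPM in library 1, Rnf2 at 31.8 and 72.2 TPM and Rbbp4 at 48.8 and 51.3 TPM. Of them 11 were called higher (30.2% of all tested genes were) and 6 lower (18.6%). With the GC trend removed 0 were higher (9.62% of all genes) and 1 was lower (8.41%). All 13 Trithorax genes were at 1 TPM or more in both: Psip1 had 43.5 TPM in library 2, against 90.6 TPM in library 1, Dpy30 56.3 and 65.1 TPM, and Ash2l 29.4 and 25.1 TPM. Among these 13 genes, 4 were called higher (30.2% of all tested genes were) and 2 lower (18.6%). With the GC trend removed 0 were higher (9.62% of all genes) and 2 were lower (8.41%). The lists had 9 TALE, 6 retinoid receptor, 22 Polycomb and 13 Trithorax genes tested. Over these lists 23 genes were called higher in library 2 (30.2% of all tested genes were) and 9 lower (18.6%). With the GC trend removed 0 were higher (9.62% of all genes) and 4 lower (8.41%). The median log2 ratio was 0.75 for the 22 Polycomb genes, -0.46 for the 13 Trithorax genes and 2.23 for the 6 retinoid receptor genes, beside 0.02 over all tested genes. With the GC trend removed these medians were -0.07, -0.38 and -0.12, beside 0.00.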

How the data were processed

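Polyadenylated RNA of 1 biosample was measured in 2 technical libraries, per the labels. The tables were made on mm10 with annotation M4, per a text deposited with them. Which aligner and quantifier were run is not given in the sources used here. Expected counts (estimates that need not be whole), TPM, FPKM and, as a percent, each transcript's share of its gene were deposited by the authors, per the file headers, as were posterior means of counts and TPM. The interval bounds of TPM were treated as a signal that the authors deposited.

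Symbols, transcript classes, coordinates and GC content came from GENCODE M21 of the same assembly, a later release; 42462 identifiers had a symbol, and 18147 of the tested genes a GC value. Expected counts were rounded for tests. The 18275 genes whose counts in the libraries added up to 10 or more entered an exact binomial test, two-sided, of library 2's part of the sum, using TMM effective sizes (edgeR 4.0.16) and Benjamini-Hochberg adjustment over all of them, in place of a quasi-likelihood test, which needs replicates. Log2 ratios used 0.5 added to each count. GC correction subtracted the median log2 ratio of 40 GC bins. Ratios of levels between neighbours used counts over effective lengths, with Clopper-Pearson 95% intervals, and floors are 3 counts. No molecular identifiers are named, so reads may not be independent molecules, and intervals and floors cover counting error only. A count was called not whole beyond a tolerance of 0.005.

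Homeoboxes came from M21 transcripts, and upstream windows (GRCm38.p6) from RefSeq, which gave windows for 22 members. Protein sequences were planned and homeobox bases were compared instead. The members, lists, limits of GC content (52% and 55%) and tests were chosen with earlier results of these data known. Named were members with a mean of 5 TPM or more (19 genes), the highest of each cluster and paralog number, called members, and the 3 highest of each companion list; further genes named at the edges of the clusters, and cluster neighbours, were chosen after their values were seen. Alternatives were DESeq2 1.42.0 size factors, total counts, other filters, a pseudocount of 1, posterior means, FPKM, edgeR's exact test at dispersion 0.01, each library alone and other limits of detection. Some results that this rule names are not reported here. The tests were tested on simulated data. Software: Python 3.11.15 (pandas 2.3.3, scipy 1.17.1, numpy 2.4.6) and R 4.3.3.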

Additional observations from a re-analysis of the deposited data

How the results depend on the processing

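The number of Hox genes at 1 TPM or more in both libraries (24) ranged from 22 (2 TPM) to 30 (3 expected counts) over the alternatives, with 27 in library 2 alone and 24 in library 1 alone. The cluster shares with each library alone ran from 45.7% to 53.7% in Hoxb, 28.1% to 29.0% in Hoxd, 10.1% to 18.0% in Hoxc and 7.17% to 8.20% in Hoxa. The highest group present was 9 in Hoxb under all the alternatives run for it. In Hoxa it was 9 with FPKM or 2 TPM and 11 with 3 expected counts, in Hoxc 8 with 2 TPM and 10 with 3 expected counts, and in Hoxd 10 with 0.5 TPM or 3 expected counts; 2 TPM was added for these positions after seeing the data. The median Hox level of 4.06 TPM was 3.11 as FPKM, 5.17 TPM without mitochondrial genes (an alternative chosen after seeing the data), and 3.55 to 4.77 TPM with each library alone. The count of shared leading transcripts stayed at 8 with posterior mean shares.

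Hox genes higher in library 2 numbered 3 with total counts (Hoxb5 joined, with a log2 ratio of 1.27), 1 with at least 50 counts (Hoxa6 was not tested) and 1 with the GC trend removed. Hox genes lower numbered 0 with total counts, 17 with the GC trend removed and 14 with GC weighted by transcript shares, an alternative chosen after seeing the data, under which 2 were higher. The median Hox log2 ratio of 0.00 was 0.44 with total counts, -0.10 with at least 50 counts, -1.17 with the GC trend removed and -0.99 with share-weighted GC. The log2 ratio of Hoxb6 turned to -0.67 and -0.67 under these GC corrections, and that of Hoxb5 to -0.26 and -0.52. DESeq2 size factors, no filter beyond 1 count, posterior mean counts, a pseudocount of 1 and the edgeR exact test kept the calls of Hoxa6, Hoxb6 and Hoxc8. Cofactor and regulator genes called higher (23) numbered 0 with the GC trend removed and 1 with share-weighted GC, and those called lower (9) numbered 4 and 3, and 2 with total counts. At 55% share-weighted GC or more, 2 of 8 Hox genes and 88.2% of all genes were called higher. The causes were not tested.

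Leaving out a library gives no ratio, so those alternatives were not run for the calls. No paired analysis was possible because the libraries form a single group. Under 10 counts over both libraries, 9 Hox genes were not tested: Hoxd1 and 8 genes of groups 11 to 13.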
